A study of Mus musculus with 40 samples.

Results

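The 8 Hedgehog pathway genes Shh, Smo, Ptch1, Gli1, Hhip, Sufu, Gli2 and Gli3 were chosen by gene symbol, not by their values, from 26411 genes counted in the files. All 8 passed the filter on low counts and were among the 14183 genes tested. RNA-seq read pairs were counted in 24 whole mouse embryos at embryonic day (E) 9.5. There were 4 male embryos for each of 6 genotypes, matched for stage and kept on a C57BL/6 background. The genotypes were wild type (WT), Kat6a-/- (labelled cfd/cfd), Kat6b-/- (dec/dec), Kat6a E/E (G656E/G656E), Kat6b E/E (G577E/G577E) and both point mutations together (Kat6a E/E;Kat6b E/E, below the double point mutant). Each mutant allele was homozygous and constitutive, and the other Kat6 gene was wild type except in the double point mutant. The null alleles lack a run of exons, while each point mutation puts a glutamic acid in place of a glycine in the acetyltransferase domain and leaves the transcript whole. The comparisons address whether loss of acetyltransferase activity and loss of the whole KAT6A or KAT6B protein leave the same mark on gene expression. The embryos came from 17 litters, and 3 litters held a wild-type embryo and 1 mutant embryo.

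Sonic hedgehog, encoded by Shh, is a lipid-modified signal that notochord, floor plate, gut endoderm and the posterior limb bud secrete in the early embryo. When it binds the receptor Patched1, the membrane protein Smoothened is freed to act in the primary cilium, and the GLI transcription factors, which SUFU holds back, switch on target genes. Ptch1, Gli1 and Hhip are classic targets, and because PTCH1 and HHIP bind the ligand, their induction limits the signal. In the neural tube the ligand patterns ventral cell types, and in somites and gut mesenchyme it induces sclerotome and fork-head genes.

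Library totals ranged from 8401990 to 23339359 counts, with a median of 15317052.5, and each of the 8 genes had between 61 and 7219 counts in every library. Kat6a was at 176 ± 8.79 CPM (counts scaled to library size with TMM factors; SD, n = 4) in WT and 166 ± 4.65 in Kat6a-/- embryos. Since the remaining exons are still counted, the whole-gene value could not check the null labels. Kat6b was at 40.5 ± 2.51 CPM in WT and 54.5 ± 2.75 in Kat6b-/- embryos, a log2 fold change of 0.41 (SE 0.065, FDR = 0.00441, limma), which did not pass with no surrogate variables (FDR = 0.0814). A double point mutant embryo, replicate 2, had a leverage of 0.88 in the fit against 0.263 to 0.595 for the other libraries, so the fold changes of that genotype against WT that are discussed for single genes are also given without it. Of the marker lists, primitive blood genes summed to 3200 to 4946 CPM in WT and 3810 to 8589 CPM in Kat6a-/- libraries. Genes of yolk sac and placenta summed to 29.3 to 165 CPM and 5.78 to 147 CPM, with the trophoblast marker Tpbpa at 0 throughout both groups. Neither list had a gene called between these 2 groups. Between Kat6a E/E and Kat6a-/- embryos, 6 of the 7 tested yolk sac and placenta genes were lower in Kat6a E/E, with a median log2 fold change of -1.45 and 1 gene, Amn, called. Between the double point mutant and Kat6a-/- that median was -1.93, with 6 of 7 lower and 0 called by limma, although 4 had an unadjusted p under 0.05, against 10.4% of all genes. The part of such tissue in the results below was not tested.

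Per kilobase of exon, 6 of the 7 other genes were above Shh in WT embryos. Smo stood at 77.6 ± 0.555 RPKM (read pairs per kilobase of exon, scaled to library size like CPM; SD, n = 4), Sufu at 29.7 ± 0.409 and Ptch1 at 27.2 ± 3.44. The 3 GLI genes followed, with Gli3 at 21.2 ± 0.774, Gli1 at 21.0 ± 2.85 and Gli2 at 15.1 ± 0.666 RPKM. Gli3 and Gli1 did not differ beyond their spread, nor did Sufu and Ptch1. Shh was at 11 ± 0.12 RPKM and Hhip, the decoy receptor, was lowest at 1.39 ± 0.386 RPKM. In bulk RNA from whole embryos, fewer cells expressing a gene and less RNA per expressing cell cannot be told apart.

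Shh (chr5:28661813-28672254, minus strand, GRCm39) had its lowest levels in Kat6a-/- embryos. The 4 WT libraries were at 29.0, 29.4, 29.3 and 29.7 CPM, and the 4 Kat6a-/- libraries at 5.38, 15.5, 20.3 and 15.8 CPM. Every Kat6a-/- embryo was below every WT embryo, and replicate 1 was lowest. The fitted log2 fold change was -0.93 (SE 0.24, 95% confidence interval -1.44 to -0.42), and its false discovery rate over all genes was 0.0511, just outside the 0.05 threshold. Without Kat6a-/- replicate 1 the difference was smaller, -0.73, and passed the threshold (FDR = 0.0217). It also passed without Kat6a-/- replicate 3, at -1.09 (FDR = 0.0431), and in DESeq2 (FDR = 0.0222), but not in edgeR (FDR = 0.0586). Without any single WT library the FDR lay between 0.101 and 0.142. The WT libraries varied by 1.09% (coefficient of variation), less than the 5.03% that counting error alone gives at their mean count. The Kat6a-/- libraries varied by 44.3%.

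The pair of Kat6a-/- and WT embryos that shared a litter had 15.5 and 29.0 CPM of Shh, a difference of -0.90 in log2 CPM. The Kat6a E/E and WT embryos that shared another litter had 27.4 and 29.4 CPM.

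In Kat6a E/E embryos, whose KAT6A protein carries the acetyltransferase mutation, Shh lay around its WT level. The Kat6a E/E libraries were at 27.4, 32.1, 28.2 and 33.2 CPM, spanning the WT values. The log2 fold change against WT was 0.04 (SE 0.2, 95% confidence interval -0.39 to 0.47). When the Kat6a point mutant was set against the Kat6a null, Shh was 0.97 higher on the log2 scale (SE 0.24, 95% confidence interval 0.45 to 1.49, FDR = 0.0607), with no overlap between the 4 and 4 libraries. That contrast passed the threshold in DESeq2 (FDR = 0.0246), without Kat6a-/- replicate 1 (0.79, FDR = 0.0177) and without Kat6a-/- replicate 3 (1.14, FDR = 0.0468). It did not pass in edgeR (FDR = 0.0598) or without Kat6a-/- replicate 2 (0.97, FDR = 0.134). Without any single Kat6a E/E library the FDR lay between 0.0611 and 0.118. Of 18 alternatives, 7 called it.

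In the other genotypes the Shh values overlapped those of WT. Kat6b-/- libraries were at 20.4, 31.3, 25.9 and 22.3 CPM, and Kat6b E/E libraries at 29.3, 30.0, 31.2 and 35.2 CPM. The double point mutant libraries were at 22.4, 31.8, 25.9 and 19.1 CPM, so that 3 of 4 lay below all WT libraries and replicate 2 lay above. Its log2 fold change against WT was -0.24 (SE 0.22, 95% confidence interval -0.71 to 0.23), and -0.34 without replicate 2 (FDR = 0.531). By mean CPM the order was Kat6b E/E (31.4), Kat6a E/E (30.2), WT (29.4), Kat6b-/- (25.0), the double point mutant (24.8) and Kat6a-/- (14.3). Among neighbours in that order, only the last step, from the double point mutant to Kat6a-/-, exceeded the SD of both groups (5.46 and 6.31 CPM). Its fitted difference was 0.69 on the log2 scale (95% confidence interval 0.15 to 1.22, FDR = 0.358).

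**Figure D1:**
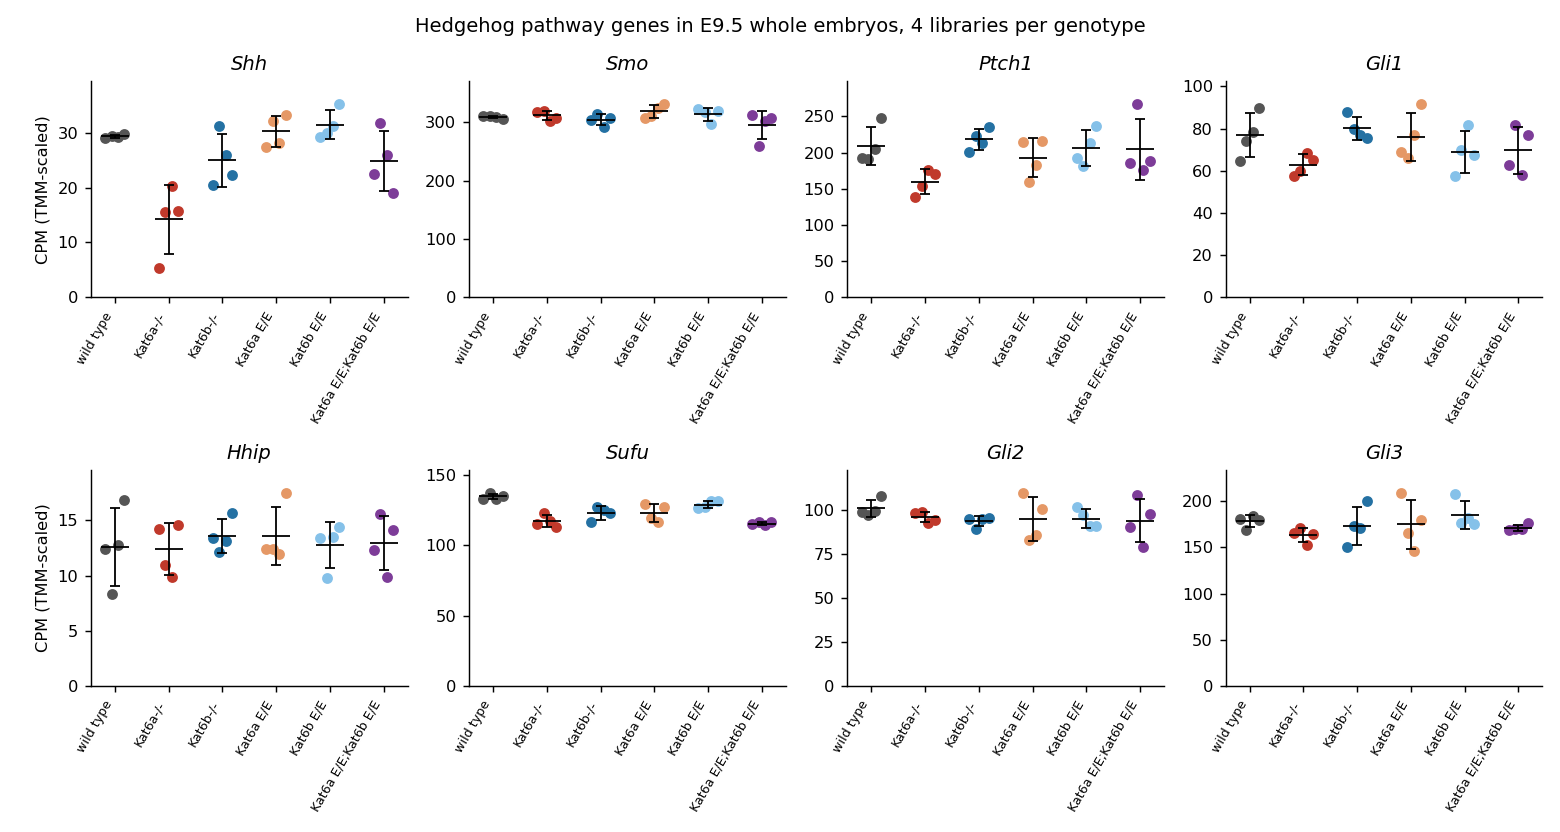
Level of each of the 8 genes in CPM (y axis, from 0) in the 6 genotypes (x axis); points are single embryos, and bars give the mean and SD of 4 embryos. The Kat6a-/- points for Shh lie between 5.38 and 20.3 CPM, all below the WT points at 29.0 to 29.7 CPM.

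Smo (chr6:29735407-29762532, plus strand) encodes the signal transducer Smoothened, and its levels lay close together. Its WT values ranged from 306 to 311 CPM and those of Kat6a-/- from 303 to 319 CPM. Its log2 fold change against WT lay between -0.057 in the double point mutant and 0.039 in Kat6a E/E, and none passed the threshold. The double point mutant replicate 2 had the lowest value of all 24 libraries, 259 CPM, and without it that genotype's fold change was -0.03.

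Ptch1 (chr13:63656142-63721412, minus strand) encodes the receptor that restrains Smoothened and is itself induced by the signal. GLI proteins bind the sequence TGGGTGGTC, and of the 8 genes only Ptch1 held it, or its reverse complement GACCACCCA, in the 250 bases before the start of the canonical transcript (GENCODE vM39). Of 21770 protein-coding promoters of that length, 41 held it on either strand (0.188%). The Ptch1 window, at chr13:63714093-63714342 of GRCm39 and written 5′ to 3′ on the minus strand, is shown because it carries that match, in capitals, starting 165 bases before the transcript start. Another annotated transcript of the gene begins further upstream. A match of letters is a description and not evidence of binding.
Ptch1: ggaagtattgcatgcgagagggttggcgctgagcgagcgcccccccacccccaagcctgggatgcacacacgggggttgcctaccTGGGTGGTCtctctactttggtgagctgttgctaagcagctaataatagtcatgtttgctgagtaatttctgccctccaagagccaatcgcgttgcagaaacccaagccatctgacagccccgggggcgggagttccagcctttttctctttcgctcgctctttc

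WT libraries had 193, 191, 205 and 248 CPM of Ptch1, and Kat6a-/- libraries had 139, 154, 176 and 171 CPM. All Kat6a-/- values were below all WT values. The fitted log2 fold change was -0.28 (SE 0.074, 95% confidence interval -0.43 to -0.12, FDR = 0.0517), a difference of -17.6%. DESeq2 called it (FDR = 0.00971) and edgeR did not (FDR = 0.0552). It was called without Kat6a-/- replicate 1 (-0.22, FDR = 0.0357), replicate 3 (-0.32, FDR = 0.0171) or replicate 4 (-0.30, FDR = 0.0385). It was not called without Kat6a-/- replicate 2 (-0.25, FDR = 0.164). Without any single WT library the FDR of Ptch1 lay between 0.134 and 0.216. Of 18 alternatives, 7 called it. The litter-mates had 154 CPM in the Kat6a-/- embryo and 193 CPM in the WT embryo.

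Kat6a E/E embryos had 215, 159, 183 and 216 CPM of Ptch1, overlapping both WT and Kat6a-/- values. The log2 fold change was -0.048 (95% confidence interval -0.20 to 0.10) against WT and 0.23 (95% confidence interval 0.07 to 0.39, FDR = 0.142) against Kat6a-/-. The double point mutant embryos had 186, 267, 176 and 189 CPM, of which replicate 2 was the highest of all libraries. Against WT the log2 fold change was -0.15 (95% confidence interval -0.31 to 0.00, FDR = 0.293), and without replicate 2 it was -0.22 (FDR = 0.0706). In Kat6b-/- and Kat6b E/E the log2 fold changes were 0.028 and 0.013.

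Gli1 (chr10:127165751-127177865, minus strand), an activator whose transcription is a common readout of the pathway, was at 64.7, 74.2, 78.3 and 89.9 CPM in WT. The Kat6a-/- libraries were at 57.6, 60, 68.6 and 65.2 CPM, so that the groups overlapped. The log2 fold change was -0.18 (SE 0.071, 95% confidence interval -0.33 to -0.03, FDR = 0.183). In the double point mutant Gli1 was at 62.8, 81.5, 57.9 and 76.9 CPM, and the log2 fold change was -0.20 (95% confidence interval -0.35 to -0.05, FDR = 0.122), and -0.20 without replicate 2 (FDR = 0.29). Neither genotype passed the threshold. Gli1 had log2 fold changes of 0.046 in Kat6b-/- and -0.10 in Kat6b E/E, and of 0.012 with the Kat6a point mutation.

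Hhip (chr8:80692480-80784658, minus strand) encodes the decoy receptor and did not pass the threshold in any comparison. WT libraries were at 12.4, 8.32, 12.8 and 16.9 CPM and Kat6a-/- libraries at 14.2, 11, 9.85 and 14.6 CPM. The log2 fold change was 0.068 (95% confidence interval -0.20 to 0.34) in Kat6a-/- and 0.19 (95% confidence interval -0.07 to 0.45) in Kat6a E/E. With 97 to 315 counts per library, Hhip was the least deeply measured target.

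Sufu (chr19:46385324-46477243, plus strand), encoding the cytoplasmic inhibitor of GLI proteins, was the member that passed the threshold. WT libraries were at 133, 137, 133 and 135 CPM. Kat6a-/- libraries were at 115, 123, 117 and 113 CPM, and double point mutant libraries at 115, 116, 114 and 116 CPM. Both mutant groups lay wholly below WT and overlapped each other. Sufu fell by 0.18 on the log2 scale in Kat6a-/- (SE 0.037, FDR = 0.0111), or -11.5%, and by 0.21 in the double point mutant (SE 0.037, FDR = 0.00498), or -13.8%. The call in Kat6a-/- was lost without WT replicate 2 (-0.16, FDR = 0.064). The call in the double point mutant held without its replicate 2 (-0.21, FDR = 0.00895) but was lost with no surrogate variables (-0.20, FDR = 0.121).

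Sufu lay below WT in the remaining genotypes too, without passing the threshold. Kat6b-/- libraries were at 116, 127, 125 and 123 CPM (log2 fold change -0.11, FDR = 0.176), and Kat6a E/E libraries at 129, 119, 116 and 127 CPM (-0.12, FDR = 0.183). Kat6b E/E libraries, at 126, 127, 131 and 131 CPM, were nearest to WT (-0.058, FDR = 0.998). In each of these 3 groups every library was below every WT library. The share of all genes without overlap was not counted for these 3 groups, so that pattern has no background beside it. All 5 comparisons share the same 4 WT libraries, whose Sufu values varied by 1.38%. This was less than counting error alone gives at their mean count. Between Kat6a E/E and Kat6a-/- the Sufu difference was 0.055 (95% confidence interval -0.02 to 0.13), which does not show that they were alike.

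Gli2 (chr1:118761858-118982598, minus strand) and Gli3 (chr13:15637809-15904611, plus strand) encode the GLI proteins that receive the signal, Gli3 acting largely as a repressor in its absence. Gli2 ranged from 97.6 to 108 CPM in WT and from 92.7 to 98.9 CPM in Kat6a-/-, with a log2 fold change of -0.036 (95% confidence interval -0.17 to 0.10). In the double point mutant its log2 fold change was -0.17 (95% confidence interval -0.30 to -0.03, FDR = 0.165), or -0.18 without replicate 2 (FDR = 0.28), and its libraries, at 79.4 to 109 CPM, enclosed the WT range. Gli3 ranged from 169 to 184 CPM in WT and from 153 to 171 CPM in Kat6a-/-, with a log2 fold change of -0.11 (95% confidence interval -0.28 to 0.07). Gli2 libraries of Kat6b-/-, at 89.5 to 95.5 CPM, lay wholly below WT, a pattern not counted over all genes for that genotype. The log2 fold change there was -0.13 (95% confidence interval -0.26 to 0.01, FDR = 0.439). No comparison of either gene passed the threshold.

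**Figure D2:**
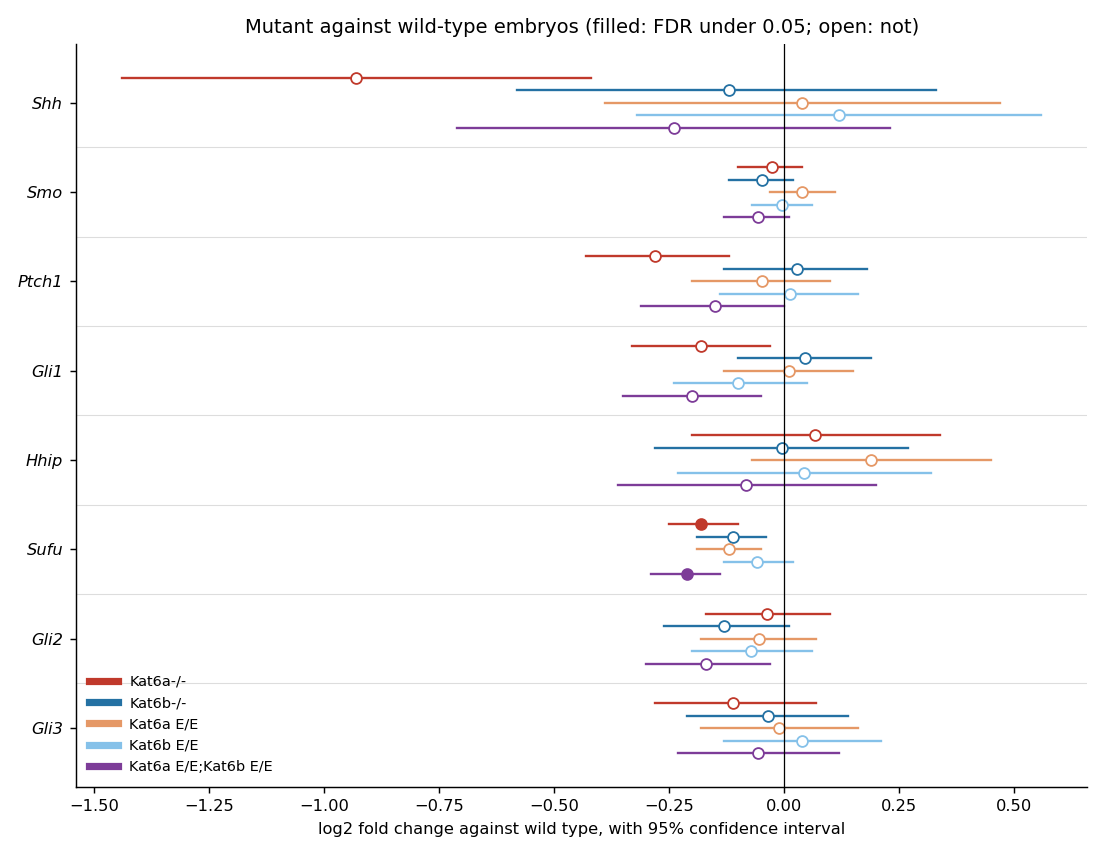
Log2 fold change against WT (x axis) of the 8 genes in the 5 mutant genotypes, with 95% confidence intervals; filled points passed FDR 0.05. Sufu is filled in Kat6a-/- (-0.18) and in the double point mutant (-0.21), while the interval for Shh in Kat6a-/- runs from -1.44 to -0.42 and its point is open.

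Counted over the set, 1 of 8 genes was called in Kat6a-/- and 1 of 8 in the double point mutant, Sufu in both and lower in both. Among all genes tested, 2.64% were called in Kat6a-/- and 2.91% in the double point mutant, and 1.38% and 1.57% were called lower. In Kat6a-/- 3 of 8 genes (Shh, Ptch1 and Sufu) had all 4 libraries below all WT libraries, against 6.49% of all genes. In the double point mutant 1 of 8 did, against 3.94%. The median log2 fold change of the 8 genes was -0.14 in Kat6a-/- and -0.16 in the double point mutant, beside -0.002 and -0.001 for all genes.

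With limma, 0 of 8 genes were called in Kat6b-/- (0.508% of all genes called), Kat6a E/E (0.275%) or Kat6b E/E (0%), and edgeR and DESeq2 also called 0. At an unadjusted p under 0.05 the counts were 1, 1 and 0, Sufu in both genotypes with 1, beside 12.1%, 10% and 4.41% of all genes, so that 1 of 8 is close to the background. Between Kat6a E/E and Kat6a-/- (1.6% of all genes called) limma and edgeR called 0 of 8 and DESeq2 called 1, Shh, while 3 (Shh, Ptch1 and Gli1) had an unadjusted p under 0.05, against 15.6% of all genes. Between Kat6b E/E and Kat6b-/- (0.0353%) and in the test of additivity of both point mutations (0%), limma, edgeR and DESeq2 called 0 of 8 and none had an unadjusted p under 0.05. Between the double point mutant and Kat6a-/- (0.00705%), the 3 tools called 0. An unadjusted p under 0.05 was found for 1 of 8 genes, Shh, against 10.4% of all genes. For Shh the departure from additivity was -0.40 (95% confidence interval -1.06 to 0.26), and -0.50 without replicate 2 of the double point mutant.

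Targets were then set against components within each library, as the mean log2 CPM of Ptch1, Gli1 and Hhip minus that of Shh, Smo, Sufu, Gli2 and Gli3. The difference averaged -1.01 ± 0.22 (SD, n = 4) in WT and -0.92 ± 0.18 in Kat6a-/-. It was -0.81 ± 0.1 in Kat6b-/-, -0.98 ± 0.16 in Kat6a E/E, -1.06 ± 0.16 in Kat6b E/E and -0.91 ± 0.21 in the double point mutant. All 6 ranges overlapped. The double point mutant exceeded WT by 0.03 without its replicate 2. Target and component means were both lowest in Kat6a-/-, at 5.64 and 6.56 against 5.86 and 6.87 in WT. When Shh was left out of the components, an alternative chosen after the values were seen, the mean went from -1.51 in WT to -1.64 in Kat6a-/-, so the sign of that small difference depended on Shh.

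The other genes of the pathway were described from lists by role, chosen with earlier results of these data known. Of 7 genes for other ligands and ligand release, 5 other receptors, 16 intracellular regulators and 9 genes of transport in the cilium, 0 were called in Kat6a-/- with limma, while 2, 3, 3 and 2 had an unadjusted p under 0.05, beside 16.9% of all genes. Their median log2 fold changes were -0.03, -0.06, 0.02 and -0.08. In the double point mutant 2.91% of all genes were called, and 0 of the 7 ligand, 5 receptor and 9 cilium genes. Of the 16 intracellular regulators, 1 was called. This was Prkaca, a catalytic subunit of protein kinase A, which targets GLI proteins for processing. It fell by 0.18 on the log2 scale (SE 0.039, FDR = 0.0123), and by 0.17 without replicate 2 (FDR = 0.0484). Its libraries ranged from 171 to 196 CPM in WT and from 144 to 176 CPM in the double point mutant, with an overlap.

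Most ventral neural tube genes, which depend on the ligand, fell in Kat6a-/- embryos. Of 6 genes, 4 were called, all lower, beside 1.38% of all genes called lower. The median log2 fold change was -0.85 beside -0.002 for all genes. Foxa2, the floor plate transcription factor, was at 11.9, 11.1, 9.05 and 13.1 CPM in WT and at 2.74, 3.72, 7.58 and 5.76 CPM in Kat6a-/-. It fell by 1.03 (SE 0.21, FDR = 0.0114), with no overlap. Nkx6-1, a ventral progenitor factor, was at 29.6, 34.1, 30.3 and 28.2 CPM in WT and at 7.76, 17.1, 15.2 and 18.1 CPM in Kat6a-/-, and fell by 0.80 (SE 0.18, FDR = 0.0282). Its relative Nkx6-2 fell by 1.05 (SE 0.22, FDR = 0.016) and Nkx2-9 by 0.89 (SE 0.23, FDR = 0.0457). Nkx2-2 and the motor neuron progenitor gene Olig2 had log2 fold changes of -0.73 and -0.50 and were not called.

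Foxa2 was called in all 18 alternatives of the analysis, Nkx6-2 in 12, Nkx6-1 in 11 and Nkx2-9 in 7. Without WT replicate 1, 2 or 3 in turn, 1 of the 6 genes was called, and without Kat6a-/- replicate 3 or 4 in turn, 2 were. The litter-mates differed by -1.64 for Foxa2 and -0.78 for Nkx6-1 in log2 CPM. Their mutant was Kat6a-/- replicate 2. Of the yolk sac and placenta genes, this pair differed by -4.33 for Afp, -3.10 for Ttr, -2.11 for Apoa1, -0.77 for Apob and -0.75 for Plac1. Amn and Cubn differed by 0.74 and 0.37. Apart from Afp in the WT embryo (19.8 CPM), all of these were at or below 3.11 CPM. The part of tissue composition in this pair was not tested.

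Intermediate and dorsal neural tube genes moved in both directions in Kat6a-/-. Of 8 genes, 3 were called lower, beside 1.38% of all genes, and the median log2 fold change of the 8 was -0.15. Dbx1, expressed in intermediate progenitors, fell by 0.84 (SE 0.18, FDR = 0.022), from between 25.0 and 34.2 CPM to between 6.0 and 18.1 CPM. Pax6 fell by 0.28 (FDR = 0.043) and Irx3 by 0.23 (FDR = 0.0187). Msx2, a roof plate and BMP-responsive gene, rose by 0.35 (SE 0.089, FDR = 0.0319). It went from 36.5, 32.2, 34.5 and 30.4 CPM in WT to 49.2, 47.7, 45.7 and 40.2 CPM. Sox2, a general neural progenitor gene among 12 tissue markers, was the called gene of that list and fell by 0.33 (SE 0.069, FDR = 0.0151). Of these 12 markers of neural, cardiac, somite and endothelial tissue, 7 had an unadjusted p under 0.05 in Kat6a-/-, against 16.9% of all genes. They lay on both sides of 0, with Sox1 at -0.33 and the endothelial genes Kdr and Cdh5 at -0.32 and -0.31, but the cardiac genes Myl7 and Tnnt2 at 0.31 and 0.27 and Fgf8 at 0.30. The part of tissue composition in the neural and mesoderm values was not tested.

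In mesoderm, 4 fork-head genes fell in Kat6a-/-. Of 8 sclerotome and gut mesenchyme transcription factors, 4 were called, all lower, beside 1.38% of all genes called lower. The median log2 fold change of the 8 was -0.59. Foxc2, a paraxial mesoderm and endothelial factor, was at 40.6, 47.4, 43.7 and 50.9 CPM in WT and at 26.6, 28.0, 32.8 and 31.4 CPM in Kat6a-/-. It fell by 0.56 (SE 0.097, FDR = 0.00352), without overlap, and was called in all 18 alternatives. Foxf1, a splanchnic mesoderm factor, fell by 0.75 (SE 0.14, FDR = 0.0111), although its lowest WT value, 23.7 CPM, lay within the Kat6a-/- range of 10.6 to 28.6 CPM. Without Kat6a-/- replicate 2, the lowest, it was at -0.47 and not called (FDR = 0.176). Foxl1 fell by 0.77 (SE 0.18, FDR = 0.0185) and Foxf2 by 0.48 (SE 0.12, FDR = 0.0354). Without any single WT library, or without Kat6a-/- replicate 2, 2 of the 8 genes were called.

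Of these 8 genes 2 were called in the double point mutant, Foxc2 (-0.37, SE 0.098, FDR = 0.0445) and the sclerotome gene Nkx3-2 (-0.94, SE 0.24, FDR = 0.0332), with a list median of -0.37. Among all genes 1.57% were called lower in that genotype. All 8 mesoderm genes were negative, beside 50.2% of all genes. An unadjusted p under 0.05 was found for 7 of the 8, or 6 without replicate 2, beside 18.2% of all genes. Foxc2 there was at 37.0, 52.7, 31.1 and 39.0 CPM, with replicate 2 above all WT libraries, and was called in 5 of 18 alternatives. Without that replicate Foxc2 was at -0.42 (FDR = 0.0552) and Nkx3-2 kept its call (FDR = 0.0427). None of the 6 ventral neural genes was called in that genotype with limma, 1 had an unadjusted p under 0.05 beside 18.2% of all genes, and the list median was -0.35 (-0.47 without replicate 2). Tnnt2, a cardiac troponin among the tissue markers, rose by 0.36 (SE 0.091, FDR = 0.0415), a call that was lost without replicate 2 (0.39, FDR = 0.0833).

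**Figure D3:**
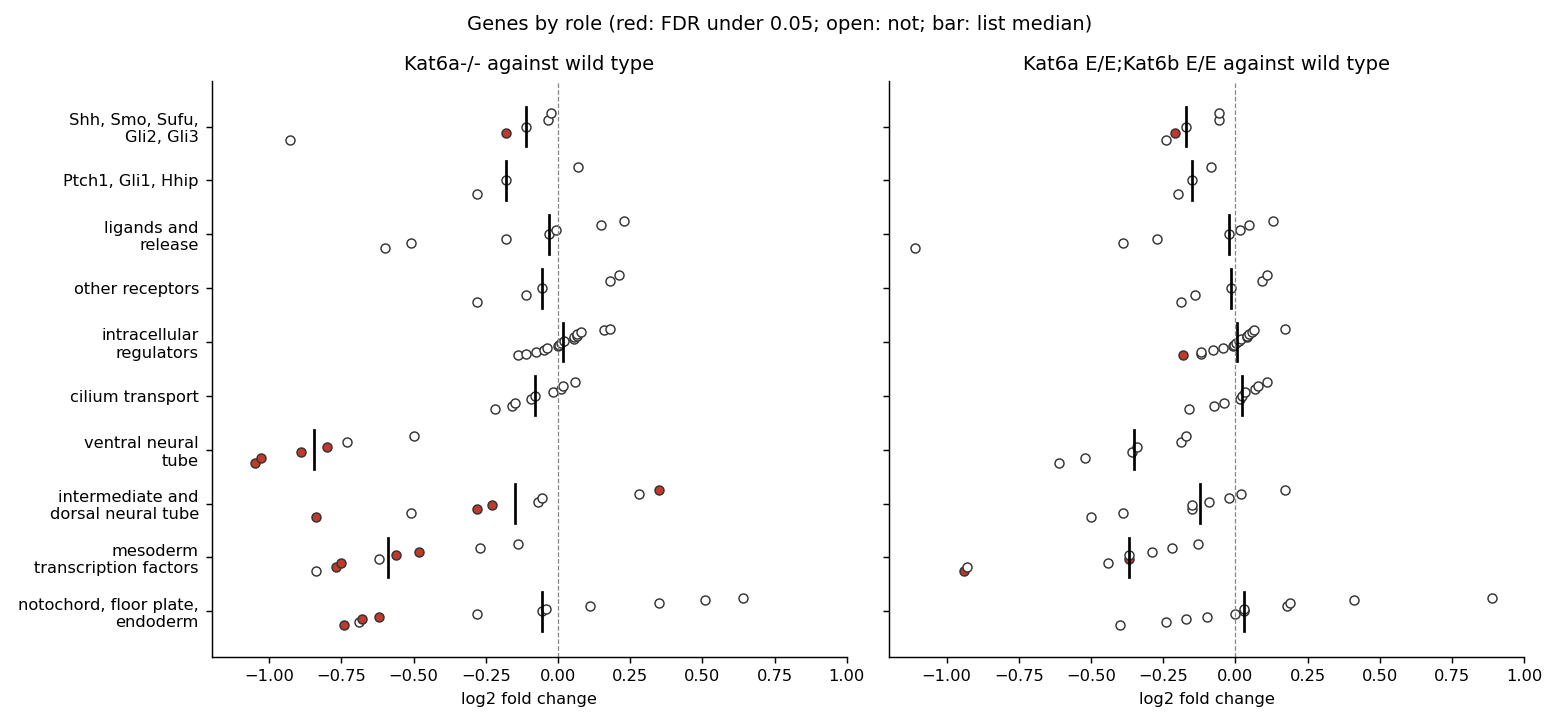
Log2 fold change against WT (x axis) of each gene in 10 lists by role (y axis), in Kat6a-/- (left) and in the double point mutant (right); red points passed FDR 0.05 and black bars are list medians. In Kat6a-/- the ventral neural genes have a median of -0.85 and the mesoderm transcription factors -0.59, while the intracellular regulators centre on 0.02.

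Genes of the cells that make the ligand were uneven. Of 11 notochord, floor plate and endoderm genes, 3 were called in Kat6a-/-, all lower, beside 1.38% of all genes called lower. The list median was -0.05. Spon1, which floor plate cells secrete, was at 80, 77.5, 74.4 and 85.6 CPM in WT and at 32.0, 47.9, 60.2 and 55.2 CPM in Kat6a-/-. It fell by 0.62 (SE 0.13, FDR = 0.018). The axon guidance gene Ntn1 fell by 0.68 (SE 0.11, FDR = 0.0059) and the endoderm and floor plate factor Foxa1 by 0.74 (SE 0.18, FDR = 0.029). Foxa1 was called in 10 of 18 alternatives, with log2 fold changes from -1.07 to -0.43, the smallest without Kat6a-/- replicate 2 (FDR = 0.163). The notochord gene T, in contrast, had a log2 fold change of 0.51 (95% confidence interval -0.48 to 1.5) and Chrd of -0.055. The summed level of the 11 genes was 283 to 315 CPM in WT and 172 to 224 CPM in Kat6a-/-, and no gene of the list was at 0 in every library of a genotype. Most of that sum was Ntn1, at 151 to 167 CPM in WT and 69.3 to 105 CPM in Kat6a-/-, and Spon1, so that it says little of the other 9 genes. The part of cell number in the level of Shh was not tested. Without WT replicate 2 or WT replicate 4, 1 of the 11 genes was called.

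Several of these genes differed between the Kat6a point mutant and the Kat6a null. Called were 2 of 6 ventral neural, 2 of 8 mesoderm and 2 of 11 ligand-source genes, beside 1.6% of all genes. Nkx6-2 was higher in Kat6a E/E by 1.00 (SE 0.23, FDR = 0.0322), Nkx6-1 by 0.78 (FDR = 0.0448), Foxf1 by 0.72 (FDR = 0.0212), Foxl1 by 0.71 (FDR = 0.0443), Spon1 by 0.63 (FDR = 0.0261) and Ntn1 by 0.58 (FDR = 0.0242). Of 18 alternatives, Foxf1 and Spon1 were called in 15, Ntn1 in 13, Nkx6-2 in 11, Foxl1 in 10 and Nkx6-1 in 9. With only the libraries compared, the FDR of these 6 genes lay between 0.144 and 0.565. In Kat6b-/- and Kat6b E/E no gene of any list was called against WT. In Kat6a E/E none of the 6 ventral neural, 8 mesoderm or 11 ligand-source genes was called against WT with limma, and 0, 1 and 1 had an unadjusted p under 0.05, beside 10% of all genes. Their fold changes were negative for 6 of 6, 8 of 8 and 9 of 11 genes, beside 50.3% of all genes. The list medians were -0.15, -0.08 and -0.04. Of the 8 intermediate and dorsal neural genes, 0 were called, 8 were negative (median -0.15) and 3 had an unadjusted p under 0.05.

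Across the 24 libraries, Shh varied with genes of the ventral midline and neural tube. Among all 14183 genes the 5 with the highest Pearson r of log2 CPM to Shh were Spon1 (0.95), Nkx6-1 (0.90), Dbx1 (0.89), Foxa2 (0.88) and Nkx2-9 (0.88). Spearman's rho was 0.82, 0.77, 0.66, 0.71 and 0.72 in that order. After genotype means were subtracted, r was 0.89 for Spon1 and 0.79 for Foxa2. Without the 2 libraries farthest from the Shh median, Kat6a-/- replicates 1 and 2, r fell to 0.87 for Spon1 and 0.70 for Nkx2-9. The points share litters and genotypes and differ in depth, so these values are a description and carry no p.

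**Figure D4:**
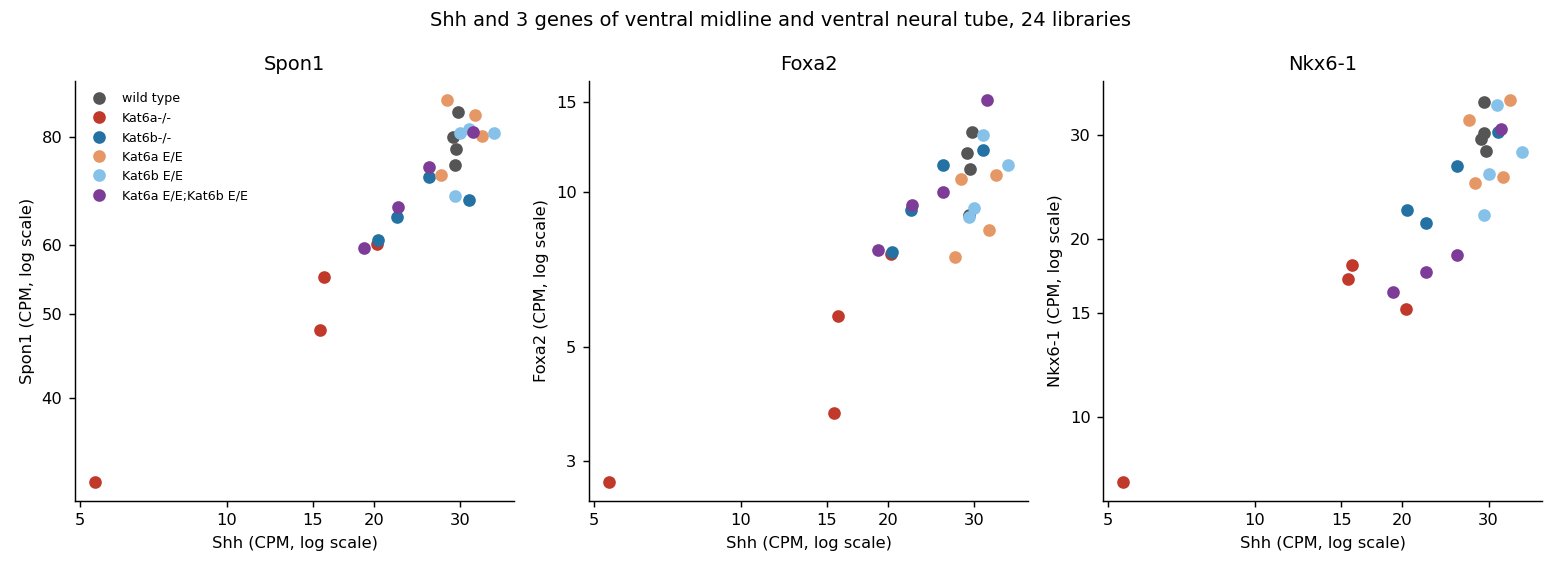
Level of Spon1, Foxa2 and Nkx6-1 (y axes, CPM, log scale) against that of Shh (x axis, CPM, log scale) in 24 embryos coloured by genotype. The Kat6a-/- embryo with 5.38 CPM of Shh has 32.0 CPM of Spon1, 2.74 of Foxa2 and 7.76 of Nkx6-1, the lowest value of each.

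For the 3 targets the closest genes were others. For Ptch1 the highest r were with Ecpas (0.89), Sema6d (0.87), Foxc2 (0.87), Atr (0.86) and Mdc1 (0.85). For Gli1 they were Ptpn23 (0.82), Prdm9 (0.81), Tmc6 (0.81), Ddx55 (0.81) and Zwilch (0.80), and for Hhip Sdk2 (0.77), Cck (0.76), Ice1 (0.69), Raph1 (0.69) and Rreb1 (0.69). Without the 2 farthest libraries for each target, r with the first gene was 0.86, 0.79 and 0.71. Between members, r was 0.67 for Ptch1 and Gli1, 0.65 for Shh and Ptch1, 0.43 for Shh and Gli1, and -0.04 for Shh and Hhip. Many other genes were closer to Shh than its targets were, as Ptch1 stood at rank 180 and Gli1 at rank 1080 among the genes ordered by r to Shh.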

How the data were processed

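Paired-end libraries were made with a TruSeq kit that does not mark strand, so reads of genes that overlap on opposite strands cannot be told apart. The authors aligned the reads to mm39 with Rsubread and, per the labels and methods, counted read pairs per RefSeq gene with featureCounts. The deposited values are raw counts, 1 file per embryo, with gene lengths. The 16 libraries of fetal liver haematopoietic cells were not used here.

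Following the study's methods, protein-coding genes off the Y chromosome (21030 protein-coding genes, of which 79 were Y-linked) passed edgeR 4.0.16 filterByExpr, leaving 14183. Gene types were matched by ID for 26359 genes, and 52 IDs did not match. Counts were TMM-scaled and fitted with limma 3.58.1 voomLmFit in R 4.3.3, with 4 surrogate variables, litter as a random block (correlation 0.107), robust empirical Bayes moderation and Benjamini-Hochberg adjustment over all genes tested. A false discovery rate (FDR) under 0.05 was a call. CPM and RPKM were computed from the TMM-scaled counts, log2 CPM with a prior count of 2. Alternatives were 0 or 6 surrogate variables, no litter block, edgeR quasi-likelihood, DESeq2 1.42.0, DESeq2 size factors, no filter, all genes, a replicate block, only the libraries compared, and each library left out. The fit was also run on simulated counts without litter effects or hidden factors, which cannot check the litter block or the surrogate variables. Positions and promoters are from GENCODE vM39 on GRCm39. P-values measure the spread between embryos that remained after the surrogate variables were fitted, with litter as a random block. No Kat6b E/E or double point mutant embryo shared a litter with a WT embryo, so neither genotype was compared with WT within a litter.

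The named genes were Kat6a, Kat6b, the 8 members, each gene of the other lists called against WT in at least 1 of 5 comparisons, and the 5 genes most like Shh, Ptch1, Gli1 and Hhip. Other list genes named were chosen after their values were seen. The members and lists were chosen with earlier results of these data known.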

Additional observations from a re-analysis of the deposited data

Results flagged for a closer look

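Of 48 groups of 4 libraries (8 genes in 6 genotypes), 3 held a library far from the other 3 by Dixon's criterion, and chance alone flags about 1 in 20 groups. These were Ptch1 in replicate 2 of the double point mutant (267 CPM), Hhip in Kat6a E/E replicate 4 (17.5 CPM) and Gli2 in Kat6b-/- replicate 2 (89.5 CPM).

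Among the pathway and marker lists, 10 genes differed between Kat6a E/E and Kat6a-/- embryos in a test of that difference (limma, n = 4 each). Over all genes tested, 1.6% were called. The 10 included 2 of 6 ventral neural, 2 of 8 mesoderm and 2 of 11 ligand-source genes. The others were 2 of 8 intermediate and dorsal neural genes, 1 of 5 other receptors and 1 of 7 yolk sac and placenta genes. Higher in Kat6a E/E on the log2 scale were Nkx6-2 (1.00), Nkx6-1 (0.78), Foxf1 (0.72), Foxl1 (0.71), Spon1 (0.63) and Ntn1 (0.58). Lower were Amn, a yolk sac and gut endocytic receptor subunit (-1.99), the roof plate and neural crest genes Msx1 (-0.48) and Msx2 (-0.48), and the Hedgehog co-receptor gene Gas1 (-0.31). Their FDR ranged from 0.00857 for Msx2 to 0.0448 for Nkx6-1. Amn, Msx1 and Gas1 were not called between Kat6a-/- and WT, with FDR values of 0.0774, 0.116 and 0.142. Amn had 4 to 11 counts per library in Kat6a E/E and 6 to 64 in Kat6a-/-, and its call was lost without Kat6a-/- replicate 4 (-1.48, FDR = 0.146). The calls of Gas1 and Msx1 were lost without Kat6a-/- replicate 2 (-0.25, FDR = 0.176, and -0.31, FDR = 0.148).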

How the results depend on the processing

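Over 17 to 26 alternatives for each comparison, the 8 genes gave 1243 fold changes on the same side of the threshold and in the same direction, 22 that newly passed it, 3 that no longer passed it and 91 that changed sign without a call in either analysis. For the named list genes called, 165 fold changes lost their call, all in the same direction, and the others kept it. In Kat6a-/- against WT, 1 of the 8 genes was called, and 3 were called (Shh, Ptch1 and Sufu) with 6 surrogate variables, without the litter block, with DESeq2 or with all genes, and 2 without a filter. Leaving out single libraries gave 0 (without WT replicate 2) to 3. Between Kat6a E/E and Kat6a-/-, where 0 were called, 2 were called with 6 surrogate variables, 1 without the litter block, with DESeq2, without a filter or with all genes, and 0 to 1 without single libraries. In the double point mutant 0 in place of 1 was called with 0 surrogate variables and with only the libraries compared. The 4 ventral neural genes called in Kat6a-/- became 1 with 0 surrogate variables, 2 with only the libraries compared and 1 to 3 without single libraries. The 4 mesoderm genes became 2 with 0 surrogate variables and 2 to 4 without single libraries, and the 3 ligand-source genes became 1 with only the libraries compared and 1 to 3 without single libraries. Over all genes, Kat6a-/- calls (375) ranged from 111 with 0 to 631 with 6 surrogate variables and from 102 to 346 without single libraries, and those of the double point mutant (413) from 0 with 0 surrogate variables or only the libraries compared to 811 with 6 and from 115 (without WT replicate 3) to 502 without single libraries, 218 without its replicate 2. Kat6b-/- calls (72) were 0 with 0 and 169 with 6 surrogate variables, 155 with DESeq2, 116 with all genes, 3 with only the libraries compared and 11 (without WT replicate 4) to 99 without single libraries. Kat6a E/E calls (39) were 14, 122, 81 and 7 with 0 surrogate variables, 6 surrogate variables, DESeq2 and only the libraries compared, and 11 (without WT replicate 4) to 74 without single libraries. Calls between Kat6a E/E and Kat6a-/- (227) were 61, 416, 374 and 3 under the same settings, 348 without a filter, 491 with all genes and 112 to 395 without single libraries. The cause of these differences was not tested, except that fewer libraries entered the fits that left libraries out. Replicate numbers were not used as pairs in the main fit. Deviations of same-numbered libraries correlated at -0.233 to 0.311 (median 0.0478), and 17 of 60 pairs exceeded 0.1. For libraries of different number the median was -0.0179. With the replicate block, 1 member was called in Kat6a-/- and 1 in the double point mutant, 2 ventral neural genes in place of 4, and 277 genes in all in Kat6a-/- and 200 in Kat6b-/-. Among the 8 genes, depth limits Hhip (97 to 315 counts per library) and Shh in Kat6a-/- replicate 1, whose 61 counts were the lowest of any member. Among the list genes called, it limits Amn (1 to 64 counts per library), Nkx3-2 (22 to 71) and Foxl1 (30 to 131).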
